A study of Homo sapiens with 14 samples.

Results

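The comparison described here sets K562 cells that carried sgHS1-5 (3 libraries) against unmodified K562 cells (WT, 2 libraries), 5 of the 14 libraries of the series. K562 was established from human chronic myeloid leukemia and keeps erythroid features. The sgHS1-5 cells stably expressed a Flag- and biotin-tagged, catalytically inactive Cas9 (dCas9), named FB-dCas9 in the sample titles, together with BirA, a bacterial biotin ligase, and sgRNAs against the DNase hypersensitive sites of the β-globin locus control region. The WT cells carried no dCas9, no BirA and no sgRNA. Another group, sgGal4 (3 libraries), expressed the same proteins with a non-targeting sgRNA and is used here as a side reference. All cells grew in IMDM medium with fetal bovine serum. The labels do not say whether the sgHS1-5 cells were a clone or a pool. They also do not tie replicates to separate cultures, and the p-values here measure only the spread from library to library, which may be technical. The sgHS1-5 population differed from WT by dCas9, BirA, the sgRNAs and its own history in culture, and these cannot be told apart in this comparison.

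As background, the locus control region is a cluster of enhancers upstream of the embryonic, fetal and adult β-like globin genes, and K562 cells use it to express the embryonic and fetal genes. The α-like genes, ζ-globin (HBZ) among them, lie on another chromosome under their own enhancers. An inactive Cas9 on DNA can hinder the factors that bind there, and the tag and ligase let proteins near the target be captured with biotin. Engineered populations are also exposed to viral or plasmid delivery, drug selection and long passage, and a comparison with unmodified cells reads all of these together.

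Libraries were sequenced to 10176582 and 10733710 counted reads in WT and to 5694448, 6773888 and 6722849 in sgHS1-5 libraries 1, 2 and 3. A count of 0 therefore allows up to 0.295 and 0.279 CPM, the read count scaled to library size, in WT and up to 0.527, 0.443 and 0.446 CPM in sgHS1-5, limits that cover counting error only. The sgHS1-5 libraries were unequal. A χ² over genes, divided by its degrees of freedom, is close to 1 where 2 replicates differ by counting error only. Its value was 1.63 for the WT pair, 3.01 for sgHS1-5 1 and 3, 17.1 for sgHS1-5 1 and 2, and 11.2 for sgHS1-5 2 and 3.

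Transcripts of several other blood cell types were present above all in sgHS1-5 library 2. For dendritic, B cell and neutrophil markers, library 3 came next. The 8 dendritic cell and MHC class II markers summed to 1.44 and 0.911 CPM in WT and to 17.8, 311 and 65.7 CPM in sgHS1-5 1, 2 and 3. CD74, the MHC class II chaperone, supplied most of this (10.0, 211 and 43.4 CPM). Monocyte markers summed to 35.8 and 38.5 CPM in WT and 87.3, 563 and 176 CPM in sgHS1-5, mostly from LYZ, which encodes lysozyme. In sgGal4 the monocyte sum was 151, 204 and 205 CPM, again mostly from LYZ (149, 202 and 203 CPM). Libraries 1 and 3 of sgHS1-5 therefore did not exceed the sgGal4 range for monocyte markers. B cell markers summed to 20.0 and 22.8 CPM in WT and 28.7, 168 and 56.2 CPM in sgHS1-5, with MS4A1, which encodes CD20, at 0 in WT and at 2.43, 38.9 and 9.60 CPM. Neutrophil markers summed to 16 and 16.9 CPM in WT and 11.2, 110 and 30.4 CPM in sgHS1-5. Library 1 was below both WT libraries in that last sum, and in each of these 4 lists library 2 was the highest of all 14 libraries. Over all genes tested, 23.4% were called higher than in WT. Of the tested markers, 5 of 5 for monocytes, 7 of 9 for B cells, 6 of 6 for dendritic cells and 3 of 6 for neutrophils were called higher. With library 1 alone the counts were 4, 4, 4 and 1.

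Single markers within these lists differed in level. In library 2, MNDA and MMP9 of neutrophils stood at 30.2 and 22.1 CPM and CSF1R, a monocyte growth factor receptor, at 27.7 CPM, while some defining genes of mature cells were at or near 0 in each sgHS1-5 library. S100A8, S100A9 and S100A12, calcium-binding proteins abundant in neutrophils and monocytes, reached at most 1.09 CPM, and FCN1, a monocyte lectin, at most 0.819 CPM. S100A8, S100A9 and FCN1 also had their highest value in library 2, and the highest outside sgHS1-5 was 0.200 CPM for S100A9 and 0 for the other two. CD8A and CD2 of T cells reached at most 0.410 and 0.162 CPM, and PF4 and PPBP of platelets had 0 reads in sgHS1-5. T and NK cell markers summed to 6.06 and 6.92 CPM in WT and to 41.3, 49.4 and 46.5 CPM in sgHS1-5. This even sum came largely from CD3D, a T cell receptor subunit (25.6, 22.3 and 27.6 CPM), and PRF1, perforin (12, 9.97 and 13.9 CPM). Other members were highest in library 2, such as NKG7, a granule protein (0.972, 9.97 and 2.57 CPM), CD5 (0.162, 1.91 and 0.541 CPM) and CD3E (1.30, 3.41 and 0.946 CPM). Platelet markers summed to 44.4 and 47.3 CPM in WT and to 133, 89.9 and 127 CPM in sgHS1-5, where library 2 was the lowest. The markers of K562 as an erythroid line, globins, GATA1, TFRC and others, summed to 1660 CPM in each WT library and to 2340, 1860 and 2240 CPM in sgHS1-5, so both groups carried them. The part of admixed cells in the results was not tested, and in bulk RNA, fewer cells of a type and less RNA per cell cannot be told apart. Counts of list members against WT are therefore given with all 3 libraries and with sgHS1-5 library 1 alone, 1 library whose spread is taken from the remaining groups. Counts with library 1 alone are to be read beside the shares of all genes called with library 1 alone, which are given below. The larger shares of the 3-library comparison are not their base. Counts against sgGal4 use all 3 libraries.

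**Figure D1:**
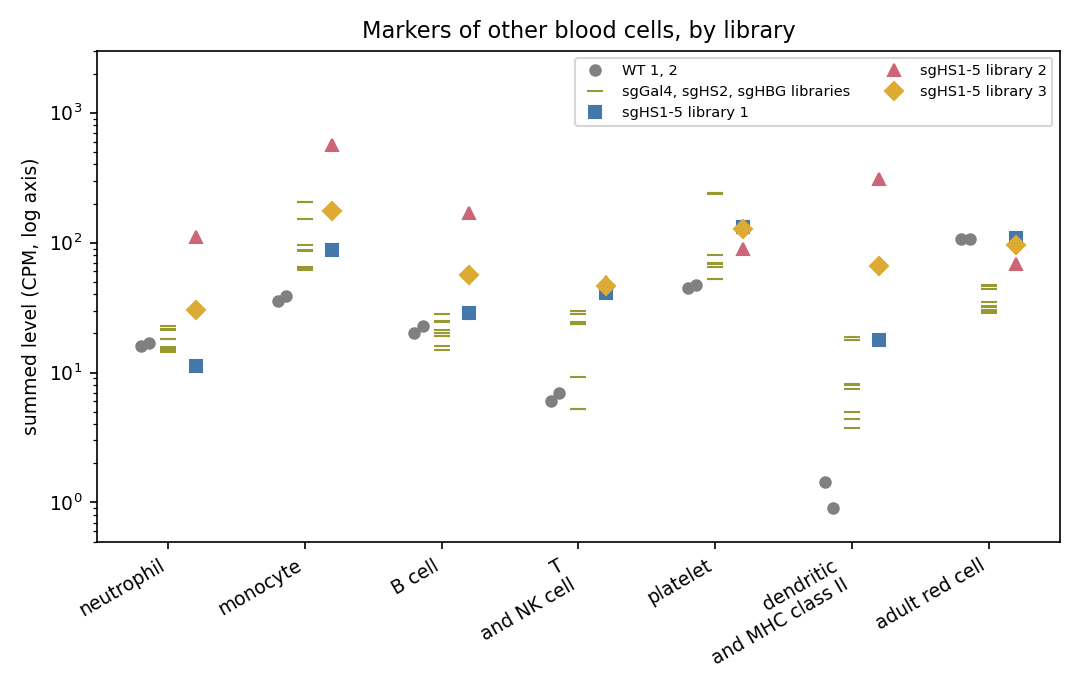
Summed level (CPM, log axis) of markers of 7 other blood cell types in each library: WT (grey circles), the 9 libraries of the other engineered groups (dashes) and sgHS1-5 libraries 1, 2 and 3 (square, triangle, diamond). For neutrophil, monocyte, B cell and dendritic markers sgHS1-5 library 2 lies highest, at 110, 563, 168 and 311 CPM.

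Against WT, 6182 of 14406 tested genes (42.9%) were called in sgHS1-5 at an adjusted p under 0.05, 3378 higher (23.4%) and 2804 lower (19.5%). The median log2 difference over all tested genes was 0.05, a value that the scaling holds near 0. With a size of at least 2-fold as well, 3215 genes (22.3%) were called. Library 1 alone gave 3825 calls (26.6%), 2047 higher (14.2%) and 1778 lower (12.3%), and 3582 genes (24.9%) were called the same way by both, 1977 of them higher (13.7%) and 1605 lower (11.1%). Genes whose sgHS1-5 libraries all lay above both WT libraries made up 36.4% of those tested, and genes lying below made up 33.5%. Among the 3378 genes called higher, 820 (24.3%) were at least 2-fold higher in library 2 than in library 1, as were 103 of 2804 genes called lower (3.67%) and 552 of 8224 not called (6.71%). Leaving out WT 2 lowered the 6182 calls to 3988, and leaving out WT 1 lowered them to 4054. Library 1 was at least 2-fold above library 2 in 99 genes called higher, 93 called lower and 304 not called. The contrast between 24.3% and 3.67% is in part built in, because a high value in library 2 itself favours a call of higher. The count of higher genes holds many that are at least 2-fold higher in library 2 than in library 1, and the count of lower genes holds few. Only libraries 1 and 2 were compared here, so the full order of the blood cell markers was not checked.

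**Figure D2:**
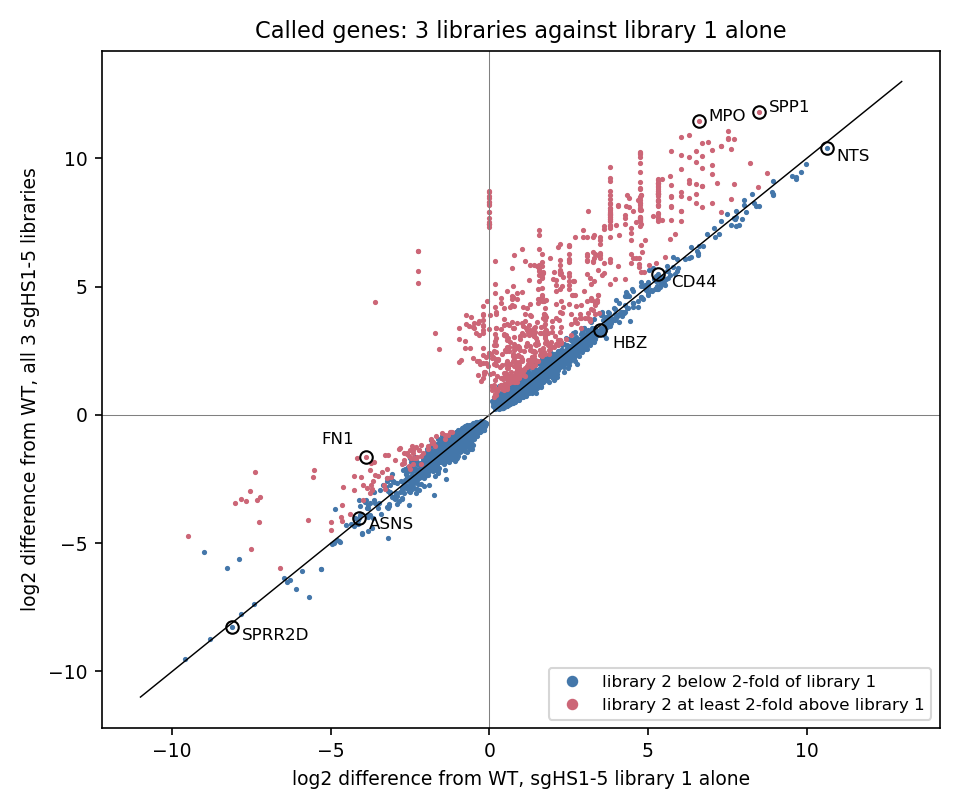
Log2 difference from WT of the called genes with a mean of at least 1 CPM, with all 3 sgHS1-5 libraries (vertical axis) against library 1 alone (horizontal axis); the diagonal marks equal values. Genes at least 2-fold higher in library 2 than in library 1 are red, a rule that by itself tends to place them above the diagonal. MPO is one of them, at 11.47 and 6.61, while ASNS (−4.03 and −4.11) and HBZ (3.30 and 3.48) lie near the diagonal.

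Nearly all genes of the amino acid stress response fell. ATF4 is a transcription factor translated when amino acids run short or the endoplasmic reticulum is stressed, and it switches on amino acid synthesis, amino acid import and tRNA charging genes. Of 27 ATF4 response genes tested, 26 fell and 0 rose in sgHS1-5 (median log2 −2.22), against 19.5% of all genes falling. With library 1 alone 25 fell and 0 rose (median −2.42). The 26 genes that fell also had no overlap between the groups, where 33.5% of all tested genes lay wholly below WT. The remaining gene, VLDLR, a lipoprotein receptor, was at 4.14 and 4.01 CPM in WT and 0.810, 19.9 and 4.6 CPM in sgHS1-5, an order shared with the blood cell markers, and had a log2 difference of 1.07 (adjusted p = 0.279) with 3 libraries and −2.31 (adjusted p = 0.016) with library 1.

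ASNS, asparagine synthetase, was at 1270 and 1240 CPM in WT and at 72.6, 88.9 and 68.4 CPM in sgHS1-5. This was a 16.3-fold fall (log2 −4.03 ± 0.18, SE, adjusted p = 8.31e-09), and the sgHS1-5 libraries lay close together. CHAC1, which degrades glutathione, fell from 45.9 and 48.0 CPM to 1.46, 3.41 and 1.35 CPM (log2 −4.48 ± 0.26). TRIB3, a pseudokinase that restrains this response, fell from 593 and 610 CPM to 48.3, 73.9 and 58.3 CPM (log2 −3.32 ± 0.17). Serine synthesis fell as well: PHGDH, its first enzyme, went from 571 and 602 CPM to 43.2, 113 and 59.1 CPM, and PSAT1, the next enzyme, from 273 and 268 CPM to 29.2, 114 and 45.0 CPM. In both, library 2 held the highest sgHS1-5 value and still lay below WT.

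The tRNA synthetases of the list fell together. WARS, for tryptophan, went from 1310 CPM in each WT library to 147, 188 and 144 CPM (log2 −3.03 ± 0.13, adjusted p = 7.66e-09). GARS, CARS and MARS, for glycine, cysteine and methionine, had log2 differences of −2.22, −2.22 and −1.99. Amino acid carriers fell by different amounts: SLC7A11, the cystine importer, had a log2 difference of −2.74, SLC7A5 and SLC3A2, the 2 chains of a neutral amino acid exchanger, −1.72 and −1.46, and SLC38A2, a small neutral carrier, −0.69 (adjusted p = 0.0122, not called with library 1, adjusted p = 0.092). DDIT3, which encodes the stress factor CHOP, fell from 299 and 285 CPM to 63.6, 58.7 and 65.6 CPM. ATF4 itself was at 666 and 653 CPM in WT and 227, 377 and 236 CPM in sgHS1-5 (log2 −1.24 ± 0.28, adjusted p = 0.00363), a smaller fall than that of most genes in its list. Its mRNA level does not report its translation, which was not measured.

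The promoter of ASNS is shown because this gene fell the most of the abundant members and because the element that C/EBP-ATF factors bind, here spelled TGATGNAA, lies in it. The 250 bases before the RefSeq start (GRCh38.p14, chr7:97872409-97872658, minus strand) are printed 5′ to 3′ on the gene's strand, with the match in capitals.
ASNS: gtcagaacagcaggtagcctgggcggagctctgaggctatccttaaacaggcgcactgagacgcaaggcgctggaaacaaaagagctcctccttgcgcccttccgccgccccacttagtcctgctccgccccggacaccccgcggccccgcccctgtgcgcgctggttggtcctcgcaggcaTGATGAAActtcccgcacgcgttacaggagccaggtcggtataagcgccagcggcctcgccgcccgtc
The match covers bases 68 to 61 before the start. Searched on both strands, TGATGNAA was found in the windows of 3 of the 22 list members matched by symbol (13.6%), ASNS, ATF3 and CHAC1, and in 3.19% of 27305 windows of the same length. A match describes letters in the window and is not evidence of binding.

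Against sgGal4, which carries dCas9 and BirA too, the same list had 24 of 27 members lower and 0 higher in sgHS1-5 (median log2 −1.32), against 20.2% of all genes called lower there. The sgGal4 cells in turn had 16 members lower and 0 higher than WT (median −0.87), where 19.6% of all genes were called lower. These comparisons share libraries with each other, so they are set side by side and are not independent. In sgGal4 1, 2 and 3, ASNS stood at 1200, 815 and 786 CPM, between WT and sgHS1-5 and much nearer to WT. On the log2 scale TRIB3 had −3.32 between sgHS1-5 and WT, −1.89 between sgHS1-5 and sgGal4 and −1.43 between sgGal4 and WT. The sgGal4 1 library stood apart by transcript length, with a median log2 deviation from 0.78 in the shortest of 5 length classes to −0.61 in the longest. Without it, 26 members were lower in sgHS1-5 than in sgGal4 and 23 were lower in sgGal4 than in WT.

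Endoplasmic reticulum chaperones, which fold secreted and membrane proteins, moved the same way by smaller amounts. Of 20 tested, 18 fell and 0 rose (median log2 −0.84), against 19.5% and 23.4% of all genes, 12 fell with library 1 alone, and in all 20 the sgHS1-5 libraries lay below both WT libraries. Over all tested genes, 33.5% lay wholly below WT in this way. HSPA5, the Hsp70 of this compartment, was at 2070 and 2010 CPM in WT and 551, 493 and 519 CPM in sgHS1-5 (log2 −1.97 ± 0.16, adjusted p = 1.05e-06). HYOU1, its co-chaperone, fell from 1210 CPM in each WT library to 332, 279 and 327 CPM (log2 −1.96 ± 0.13). HERPUD1, a scaffold for degradation of misfolded proteins, went from 118 and 120 CPM to 26.6, 46.2 and 25.8 CPM (log2 −1.86). XBP1, a transcription factor of the unfolded protein response, had a log2 difference of −0.97. Falls were smaller for the abundant chaperones CALR (−0.56), HSP90B1 (−0.54) and PDIA6 (−0.38), and of these 3 CALR was also called with library 1. EDEM1 and SDF2L1, both in protein quality control, were not called (log2 −0.38 and −0.75, adjusted p = 0.0588 and 0.098).

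HSPA5 carries a further element, the endoplasmic reticulum stress element in its full-length form, shown in capitals in its 250 bases before the start (GRCh38.p14, chr9:125241344-125241593, minus strand).
HSPA5: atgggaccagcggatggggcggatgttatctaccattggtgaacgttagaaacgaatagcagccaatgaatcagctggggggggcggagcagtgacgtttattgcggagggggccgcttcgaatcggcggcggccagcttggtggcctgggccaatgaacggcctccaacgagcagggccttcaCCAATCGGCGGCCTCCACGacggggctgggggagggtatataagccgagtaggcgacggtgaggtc
The match spans bases 66 to 48 before the start. The element was found on either strand in 6 of 19 matched list members (31.6%), which were HSPA5, HSP90B1, CALR, CANX, CRELD2 and XBP1, and in 22 of 27305 windows (0.0806%). All 6 fell, with log2 differences from −1.97 (HSPA5) to −0.54 (HSP90B1). As 18 of the 20 tested members of the list fell, this does not set the 6 apart. A link between the element and the fall was not tested. Against sgGal4, 18 of the 20 chaperones were lower in sgHS1-5 (median −0.94), beside 20.2% of all genes. The sgGal4 cells had 4 higher and 2 lower than WT (median 0.11), beside 22.7% and 19.6% of all genes. For HSPA5 the log2 difference was −1.74 from sgGal4 (adjusted p = 3.8e-06) and −0.23 between sgGal4 and WT (adjusted p = 0.27).

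Glycolysis and hypoxia genes went up. These encode the enzymes that split glucose and the targets of hypoxia-inducible factors, which act when oxygen or its sensing falls. Of 32 tested, 24 rose and 3 fell (median log2 0.89), against 23.4% and 19.5% of all genes, and library 1 alone gave 20 higher and 3 lower. LDHA, which turns pyruvate into lactate, was at 378 and 358 CPM in WT and 1610, 1370 and 1510 CPM in sgHS1-5 (log2 2.02 ± 0.11, adjusted p = 3e-08). PGK1 and PKM, which make ATP in the pathway, rose from 247 and 258 CPM to 577, 648 and 586 CPM and from 389 and 406 CPM to 976, 1100 and 1010 CPM. HK2, an inducible hexokinase, rose from 30.6 and 25.4 CPM to 103, 146 and 117 CPM (log2 2.12 ± 0.22). EGLN3, an oxygen-sensing prolyl hydroxylase, rose from 3.27 and 3.73 CPM to 41.1, 21.7 and 41.6 CPM. CA9, a carbonic anhydrase widely used as a hypoxia marker, had 0 reads in WT and 2.92, 1.09 and 2.57 CPM in sgHS1-5, at least 15.3-fold higher.

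Members of the list did not all rise. VEGFA, the angiogenic growth factor, fell from 510 and 521 CPM to 248, 192 and 239 CPM (log2 −1.19 ± 0.11, adjusted p = 4.37e-06). HK1, the constitutive hexokinase, fell from 797 and 776 CPM to 410, 287 and 381 CPM, while HK2 rose. PFKM, the muscle-type phosphofructokinase, fell by 0.71 on the log2 scale, and its relatives PFKP and PFKL rose by 0.59 and 0.32 with 3 libraries but were not called with library 1 alone (adjusted p = 0.082 and 0.2). SLC2A1, the general glucose carrier, was at 111 and 102 CPM in WT and 126, 93.3 and 114 CPM in sgHS1-5 and was not called (adjusted p = 0.842). SLC2A3, a high-affinity glucose carrier, rose from 127 and 115 CPM to 366, 255 and 333 CPM.

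The window of LDHA (GRCh38.p14, chr11:18394313-18394562, plus strand) is printed as an example of an abundant enzyme of the list that rose, with the core of the hypoxia response element, ACGTG, in capitals on either strand.
LDHA: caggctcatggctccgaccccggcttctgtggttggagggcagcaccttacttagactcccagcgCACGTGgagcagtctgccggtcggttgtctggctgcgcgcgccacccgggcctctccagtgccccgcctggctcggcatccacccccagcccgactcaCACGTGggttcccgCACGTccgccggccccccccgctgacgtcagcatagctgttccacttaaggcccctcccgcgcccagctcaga
Both CACGTG runs are palindromes and count as a match on each strand, so the 5 matches fill 3 separate stretches. ACGTG was present in 13 of 28 matched list members (46.4%) and in 18.7% of all windows. Against sgGal4, 26 of 32 members were higher and 0 lower in sgHS1-5 (median 0.95), where 20.3% of all genes were called higher. Between sgGal4 and WT, 7 were higher and 8 lower (median 0.06), beside 22.7% and 19.6% of all genes. LDHA showed a log2 difference of 2.00 from sgGal4 and 0.03 between sgGal4 and WT (adjusted p = 0.84), whereas P4HA1, a collagen prolyl hydroxylase, had 0.26 and 2.21 for the same pair and 2.47 against WT.

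Cytosolic heat shock chaperones rose in contrast to those of the endoplasmic reticulum. Of 15 tested, 13 rose and 0 fell (median log2 1.26), against 23.4% and 19.5% of all genes, and 12 rose with library 1 alone. HSPA8, the constitutive Hsp70, was at 483 and 461 CPM in WT and 2330, 2080 and 2200 CPM in sgHS1-5 (log2 2.22 ± 0.12, adjusted p = 3e-08). HSP90AB1 and HSP90AA1, the cytosolic Hsp90 pair, rose from 1460 and 1410 CPM to 3430, 2810 and 3190 CPM and from 665 and 637 CPM to 1550, 1460 and 1470 CPM. HSPA1A, an inducible Hsp70, rose from 36.0 and 40.9 CPM to 186, 146 and 181 CPM, although reads of HSPA1A and its near-identical copy HSPA1B cannot be assigned with certainty. HSPD1, the mitochondrial chaperonin, and BAG3, an Hsp70 cofactor, were not called (log2 0.09 and 0.06). In this list 14 members were higher in sgGal4 than in WT (median 1.73), beside 22.7% of all genes. In sgHS1-5 0 were higher and 6 lower than in sgGal4 (median −0.36), beside 20.3% and 20.2% of all genes. HSPA8 stood 2.18 higher in sgGal4 than in WT and 0.05 apart between sgHS1-5 and sgGal4 (adjusted p = 0.73). Without sgGal4 1 the list had 2 members higher and 6 lower than sgGal4. The palindrome TTCNNGAA was in 2 of 15 windows of the list (13.3%) and in 6.72% of all windows.

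**Figure D3:**
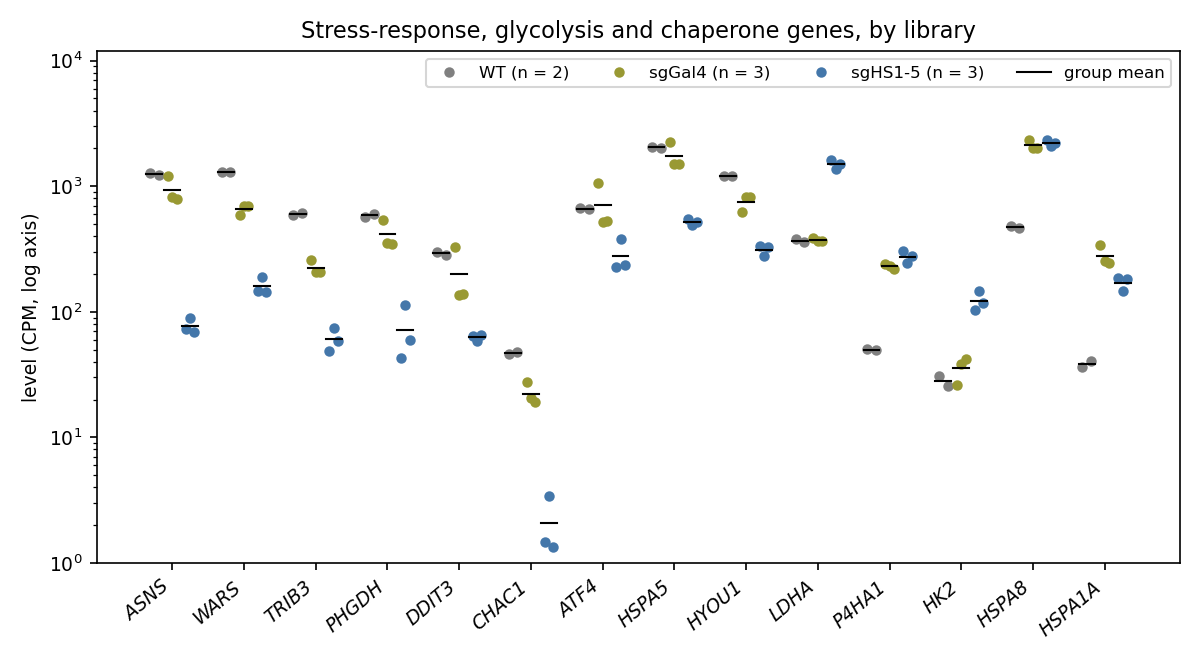
Level (CPM, log axis) of 14 genes in each WT, sgGal4 and sgHS1-5 library, with group means as bars. ASNS to HYOU1 lie lowest in sgHS1-5, LDHA and HK2 lie highest there, and HSPA8 lies at a similar level in sgGal4 and sgHS1-5, above 461 and 483 CPM in WT.

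The genes nearest the targeted region changed in part. The β-globin cluster had 3 higher genes and 0 lower genes among its 5 tested (median log2 0.88), where 23.4% and 19.5% of all genes were called. With library 1 alone it had 1 higher gene, where 14.2% of all genes were called higher. HBG1, a fetal globin gene, was at 58.5 and 62.0 CPM in WT and 154, 102 and 146 CPM in sgHS1-5 (log2 1.15 ± 0.38, adjusted p = 0.0263; with library 1, 1.35, adjusted p = 0.067). HBG2, its near-identical neighbour, was at 122 and 129 CPM in WT and 280, 174 and 230 CPM in sgHS1-5. All sgHS1-5 libraries lay above WT, but the difference was not called (log2 0.86 ± 0.37, adjusted p = 0.0808), and reads of both genes are hard to assign. HBE1, the embryonic gene and the most abundant β-like transcript in WT per kilobase, had values of 342 and 346 CPM in WT and 289, 188 and 277 CPM in sgHS1-5 (log2 −0.45 ± 0.30, adjusted p = 0.256). HBD, a minor adult gene, rose from 0.962 and 1.18 CPM to 3.56, 2.59 and 2.84 CPM (log2 1.46 ± 0.30, adjusted p = 0.00201) and was the member also called with library 1. HBD was also higher than WT in sgGal4, at 5.67, 3.77 and 3.21 CPM (log2 1.94, adjusted p = 0.0002). Between sgHS1-5 and sgGal4 HBD was not called (log2 −0.48, adjusted p = 0.127), so its rise was not particular to sgHS1-5. HBBP1, a globin pseudogene, rose from 1.73 and 2.10 CPM to 3.40, 2.87 and 4.33 CPM. HBB, the main adult gene, had 2 and 12 reads in WT 1 and 2 (0.192 and 1.09 CPM) and 0 in sgHS1-5, below the level for testing. WT 1 lay below the 0.443 to 0.527 CPM that 0 reads allow in sgHS1-5, so a fall would rest on WT 2 only.

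On the authors' RPKM scale, which divides by transcript length, HBE1 went from a mean of 466 in WT to 339 in sgHS1-5, while HBG1 went from 164 to 326 and HBG2 from 335 to 557. On this scale HBE1 was first in WT (465 and 466) and HBG2 first in each sgHS1-5 library (673, 416 and 582, beside 394, 259 and 365 for HBE1). On the CPM scale HBE1 stayed first in sgHS1-5 (289, 188 and 277 CPM, beside 280, 174 and 230 CPM for HBG2). Neither HBE1 nor HBG2 was called against WT, and their order was not tested. In each of these 3 genes library 2 was the lowest of the sgHS1-5 libraries. Against sgGal4, HBG2 and HBBP1 were called higher in sgHS1-5 (log2 1.27 and 1.5), and HBE1 was not called (−0.44, adjusted p = 0.22). Library 1 of sgGal4 stood apart from the other two: in sgGal4 1, 2 and 3 HBE1 stood at 544, 240 and 239 CPM, HBG1 at 130, 47.1 and 46.5 CPM and HBG2 at 166, 58.1 and 60.5 CPM. Without sgGal4 1, HBE1 in sgHS1-5 (188 to 289 CPM) overlapped sgGal4, and the cluster had 3 members higher and 0 lower in sgHS1-5 (median 1.51), in place of 2 and 0 (median 0.85).

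In the α-globin cluster on another chromosome 3 of 10 genes (30%) rose and 1 (10%) fell (median log2 0.29), beside 23.4% and 19.5% of all genes. Library 1 alone also gave 3 and 1, with 2 higher genes called in both. HBZ, which encodes embryonic ζ-globin, was at 13 and 13.4 CPM in WT and 147, 99.3 and 143 CPM in sgHS1-5, a 9.83-fold rise (log2 3.30 ± 0.25, adjusted p = 6.79e-07). The sgHS1-5 libraries were all far above WT, and library 1 alone gave 3.48. In sgGal4 HBZ was below WT (log2 −1.01, adjusted p = 0.0051), so that sgHS1-5 exceeded sgGal4 by 4.30. HBA1, an α-globin gene, rose from 1.64 and 1.73 CPM to 9.39, 3.14 and 5.68 CPM (log2 1.83 ± 0.54, adjusted p = 0.016). HBA2, its twin, was at 0.770 and 1 CPM in WT and 3.89, 1.64 and 1.22 CPM in sgHS1-5 and was called with library 1 (adjusted p = 0.02) but not with all 3 libraries (adjusted p = 0.116). NPRL3, whose introns hold the α-globin enhancers, was at 69.0 and 74.2 CPM in WT and 76.8, 64.2 and 79.9 CPM in sgHS1-5 (adjusted p = 0.825). The third gene called higher was LUC7L, a splicing factor gene beside the cluster (19.6 and 20.9 CPM in WT, 41.6, 38.0 and 39.1 CPM in sgHS1-5, not called with library 1, adjusted p = 0.129), and the gene called lower was RHBDF1, an inactive rhomboid protease (15.1 and 15 CPM against 8.42, 8.47 and 10.0 CPM).

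Genes listed as neighbours of the β-globin cluster on chromosome arm 11p were called lower in 7 of 17 cases (41.2%) and higher in 3 (17.6%; median log2 −0.30), beside 19.5% and 23.4% of all genes. With library 1 alone 5 were lower and 1 higher, beside 12.3% and 14.2% of all genes. STIM1, a calcium sensor of the endoplasmic reticulum, fell from 182 and 184 CPM to 83.2, 88.2 and 87.5 CPM (log2 −1.09 ± 0.14, adjusted p = 4.63e-05). TRIM6, a ubiquitin ligase, and SMPD1, a lysosomal sphingomyelinase, fell by 1.21 and 1.29 on the log2 scale. STIM1 was lower in sgGal4 than in WT too (log2 −0.65, adjusted p = 0.00197) and differed by −0.44 between sgHS1-5 and sgGal4. TRIM6 and SMPD1 were not called between sgGal4 and WT and differed by −1.47 and −1.45 between sgHS1-5 and sgGal4. Against sgGal4 the list had 2 members higher and 7 lower, beside 20.3% and 20.2% of all genes. The olfactory receptor genes OR51B4 and OR51B5, which lie beside the globin genes and are transcribed in K562, were at 29.7 and 29.0 CPM and at 96.8 and 98.7 CPM in WT. In sgHS1-5 they stood at 31.6, 19.8 and 31.9 CPM and at 108, 69.9 and 94.5 CPM, and neither was called (adjusted p = 0.833 and 0.629). The 3 genes called higher were OR51I1, a more distant receptor gene, TRIM22, an antiviral ubiquitin ligase, and DCHS1, a cadherin. OR51I1 had 1 read in each WT library and 0.972, 0.273 and 1.08 CPM in sgHS1-5 (ratio 8.18, counting interval 1.92 to 73.4), and TRIM22 stood highest in library 2 (5.83, 20.2 and 7.03 CPM).

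Among 33 regulators of globin transcription 12 rose (36.4%) and 5 fell (15.2%; median log2 0.19), beside 23.4% and 19.5% of all genes. With library 1 alone 7 rose and 4 fell, shares not far from the 14.2% and 12.3% of all genes. The erythroid factors GATA1 (213 and 215 CPM in WT, 216, 133 and 191 CPM in sgHS1-5), KLF1 (71.5 and 83.6 against 88.9, 60.9 and 88.1 CPM) and GATA2 (143 and 144 against 171, 124 and 158 CPM) were not called. TAL1, their partner, fell from 144 CPM in each WT library to 81.0, 50.9 and 71.5 CPM (log2 −1.09 ± 0.16). In sgGal4 TAL1 stood at 42.6, 50.2 and 53.3 CPM, and sgHS1-5 exceeded sgGal4 by a log2 of 0.47 (adjusted p = 0.0198). SOX6, a repressor of embryonic globin genes, fell from 16.5 and 14.6 CPM to 2.92, 4.64 and 4.73 CPM (log2 −1.91 ± 0.34). The other lower members were KLF3, a repressor (−0.86), HDAC1, a histone deacetylase (−0.37), and NR2F2, an orphan nuclear receptor (−0.75). CHD4, the motor of the NuRD repressor complex, rose from 439 and 421 CPM to 804, 692 and 754 CPM (log2 0.80 ± 0.10, adjusted p = 3.64e-05). ZFPM1, a GATA1 cofactor, rose by 1.14, LDB1, which bridges enhancers and promoters, by 0.90, and CTCF, which binds insulators, by 0.78. BCL11A, the fetal globin repressor, had 0 reads in WT and in sgHS1-5 1, with 9.83 and 2.30 CPM in libraries 2 and 3, the order of the blood cell markers. Against sgGal4 the list had 14 members higher and 0 lower in sgHS1-5, beside 20.3% and 20.2% of all genes.

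**Figure D4:**
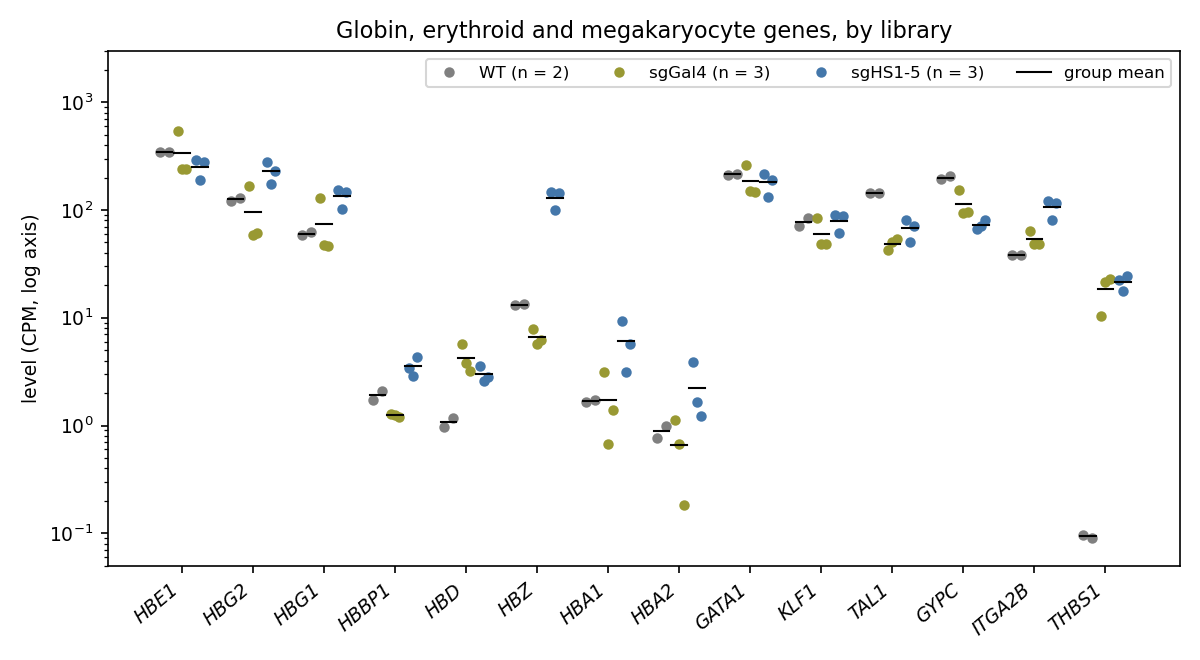
Level (CPM, log axis) of globin, erythroid and megakaryocyte genes in each WT, sgGal4 and sgHS1-5 library, with group means as bars. HBZ in sgHS1-5 (99.3 to 147 CPM) lies apart from WT and sgGal4, GATA1 and KLF1 overlap across groups, and GYPC is highest in WT (193 and 206 CPM).

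Of 31 red cell membrane genes, 13 fell (41.9%) and 5 rose (16.1%; median log2 −0.48), beside 19.5% and 23.4% of all genes, and library 1 alone gave 10 and 3, beside 12.3% and 14.2%. GYPE and GYPC, which encode glycophorins, a class of sialic acid-rich coat proteins of red cells, both fell. GYPE went from 69.9 and 69.5 CPM to 13.6, 8.88 and 13 CPM, and GYPC from 193 and 206 CPM to 66.4, 71.1 and 80.7 CPM. GYPE has close relatives in sequence, and its share of the reads is uncertain. RHD, a blood group antigen gene, rose from 10.7 and 10.3 CPM to 29.3, 19.7 and 28.3 CPM, and DMTN, a cytoskeletal protein, and CD47, the signal against phagocytosis, by 1.10 and 0.84. CD36 and CA2 were called higher but had their highest values in library 2 (0.648, 4.23 and 3.24 CPM, and 0.486, 18.6 and 4.87 CPM), and neither was called with library 1. Against sgGal4 14 members were higher and 3 lower in sgHS1-5, beside 20.3% and 20.2% of all genes. In sgGal4 4 were higher and 19 lower than in WT, beside 22.7% and 19.6% of all genes.

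Heme synthesis and iron genes had 7 of 22 higher (31.8%) and 8 lower (36.4%), beside 23.4% and 19.5% of all genes. With library 1 the counts were 3 and 4, near the 14.2% and 12.3% of all genes. CPOX, a late enzyme of heme synthesis, rose from 30.9 and 27.6 CPM to 79.8, 82.5 and 85.6 CPM (log2 1.5 ± 0.11, adjusted p = 6.61e-07). TFRC, the transferrin receptor, rose from 474 and 461 CPM to 1120, 1070 and 1130 CPM. FECH, which inserts the iron, fell from 90.1 and 85.6 CPM to 32.9, 36.9 and 38.7 CPM, and ALAD, an early enzyme, from 62.3 and 63.3 CPM to 30, 33.9 and 26.4 CPM. ALAS2, the erythroid rate-limiting enzyme, was at 101 CPM in each WT library and 82.3, 55.6 and 85.2 CPM in sgHS1-5 and was not called (adjusted p = 0.0792).

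Megakaryocyte and platelet genes rose in 9 of 14 cases (64.3%) and fell in 0 (median log2 1.70), beside 23.4% and 19.5% of all genes, and 7 rose with library 1 alone. Another 7 of the 21 listed were too low to be tested, among them PF4 and PPBP. ITGA2B, the platelet integrin chain, was at 38.5 and 38.4 CPM in WT and 122, 80.3 and 117 CPM in sgHS1-5 (log2 1.47 ± 0.18, adjusted p = 5.01e-05). THBS1, which encodes thrombospondin, had 1 read in each WT library and 22.5, 17.6 and 24.2 CPM in sgHS1-5, a ratio of 229 with a counting interval of 62.9 to 1890. RAB27B, a granule transport GTPase, rose from 9.43 and 8.29 CPM to 58.8, 45.9 and 69.6 CPM, and GP6, the collagen receptor, from 2.41 and 2.82 CPM to 10.4, 7.65 and 11.2 CPM. In these 4 genes library 2 was the lowest sgHS1-5 library. FLI1, a megakaryocyte transcription factor, PLEK, CD9 and F13A1 followed the other order, with library 2 highest (FLI1 at 0.324, 39.3 and 8.11 CPM), and of these PLEK and CD9 were also called with library 1. ITGB3, the partner of ITGA2B, was not called (log2 0.35, adjusted p = 0.36). Against sgGal4 the list had 8 members higher and 0 lower in sgHS1-5 (median 0.98), beside 20.3% and 20.2% of all genes. THBS1 was high in sgGal4 too (10.4, 21.6 and 22.9 CPM), and sgHS1-5 differed from sgGal4 by a log2 of 0.21 (adjusted p = 0.47).

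Adhesion genes rose in 13 of 21 cases (61.9%, beside 23.4% of all genes) and fell in 4 (19%, beside 19.5%; median log2 2.31; library 1 alone gave 13 and 3, median 1.28). CD44, the hyaluronan receptor, was at 4.91 and 3.92 CPM in WT and 177, 240 and 182 CPM in sgHS1-5, a 45.2-fold rise (log2 5.50 ± 0.18, adjusted p = 9.54e-10). ITGA4, an integrin chain, rose from 0.770 and 0.364 CPM to 103, 174 and 114 CPM (log2 7.82 ± 0.54), and SELPLG, the selectin ligand PSGL-1, from 5.58 and 4.55 CPM to 32.4, 35.6 and 28.1 CPM. These 3 were high in every sgHS1-5 library. In 8 of the 13 genes that rose, library 2 was at least 2-fold above library 1, as for ITGAL and ITGB2, the chains of the leukocyte integrin LFA-1 (1.94, 96.0 and 22.2 CPM, and 19.9, 276 and 91.8 CPM). CD44 and ITGA4 did not differ beyond the threshold from sgGal4 (log2 −0.24 and 0.22, adjusted p = 0.12 and 0.56), where they stood above WT by 5.74 and 7.61. The 4 that fell were ITGB1, a widely used integrin chain (−0.78), ICAM1 and ICAM2, ligands of LFA-1 (−0.54 and −1.21), and L1CAM, a neural adhesion molecule (−1.68).

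Extracellular matrix genes rose in 13 of 21 cases (61.9%, beside 23.4% of all genes) and fell in 5 (23.8%, beside 19.5%; median 1.48; library 1 alone gave 10 and 4). COL18A1, a basement membrane collagen, rose from 54.4 and 55.4 CPM to 184, 122 and 154 CPM. COL6A3, a microfibrillar collagen chain, fell from 413 and 418 CPM to 155, 102 and 132 CPM, and COL6A2, LAMB1 and VIM, which encode a partner chain, a laminin and vimentin, fell by 1.09, 1.37 and 0.41. FN1, which encodes fibronectin, was at 305 and 307 CPM in WT and 20.7, 181 and 89.4 CPM in sgHS1-5. Its log2 difference was −1.65 ± 0.52 (adjusted p = 0.0223) with 3 libraries and −3.88 with library 1 (adjusted p = 1.2e-05), and among the sgHS1-5 libraries it followed the order of the blood cell markers. Against sgGal4 the list had 3 members higher and 10 lower in sgHS1-5, beside 20.3% and 20.2% of all genes. In sgGal4 15 were higher and 3 lower than in WT, beside 22.7% and 19.6% of all genes.

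MHC class I and antigen processing genes rose in 9 of 17 cases (52.9%) and fell in 2 (median 0.91), beside 23.4% and 19.5% of all genes, but library 1 alone gave 4 and 1 (median 0.55). HLA-B was at 1.06 and 0.729 CPM in WT and 14.4, 360 and 80.7 CPM in sgHS1-5. HLA-C was at 1.73 and 2.92 CPM in WT and 13.3, 181 and 38.9 CPM in sgHS1-5. Both were called with library 1 as well (log2 4.0 and 2.50), and in 6 of the 9 higher genes library 2 was at least 2-fold above library 1. PSMB9, an immunoproteasome subunit, rose more evenly, from 2.12 and 3.55 CPM to 16.5, 20.1 and 14.3 CPM (log2 2.57 ± 0.32). B2M, the shared light chain, was not called (570 and 563 against 482, 716 and 522 CPM, adjusted p = 0.955). K562 is known for low class I expression, which these WT values show. The 2 lower members, CALR (−0.56) and PDIA3 (−0.71), load peptides onto class I molecules, and the chaperone list holds both.

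Interferon-stimulated genes rose in 14 of 29 cases (48.3%, beside 23.4% of all genes) and fell in 4 (13.8%, beside 19.5%; median 0.65; 10 and 1 with library 1). IFIH1, a sensor of double-stranded RNA, rose from 2.98 and 3.10 CPM to 19.6, 26.9 and 20.3 CPM (log2 2.87 ± 0.19, adjusted p = 2.8e-07), and SAMD9, an antiviral factor, from 2.50 and 2.46 CPM to 15.5, 24.3 and 15.4 CPM. IFI6, a mitochondrial protein, rose from 2.21 and 3.64 CPM to 15.1, 13.9 and 16 CPM. ISG15, a ubiquitin-like member of the list, was not called (12.5 and 14.9 CPM in WT, 14.3, 12.2 and 12.7 CPM in sgHS1-5). STAT2 and IRF9, which carry the interferon signal to DNA, fell by 0.49 and 0.57 but were not called with library 1 (adjusted p = 0.1 and 0.056), and IFI27 and RSAD2, both antiviral genes, fell by 1.66 and 0.73. In 8 of the 14 higher genes, library 2 was at least 2-fold above library 1, MX1 and XAF1 among them.

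**Figure D5:**
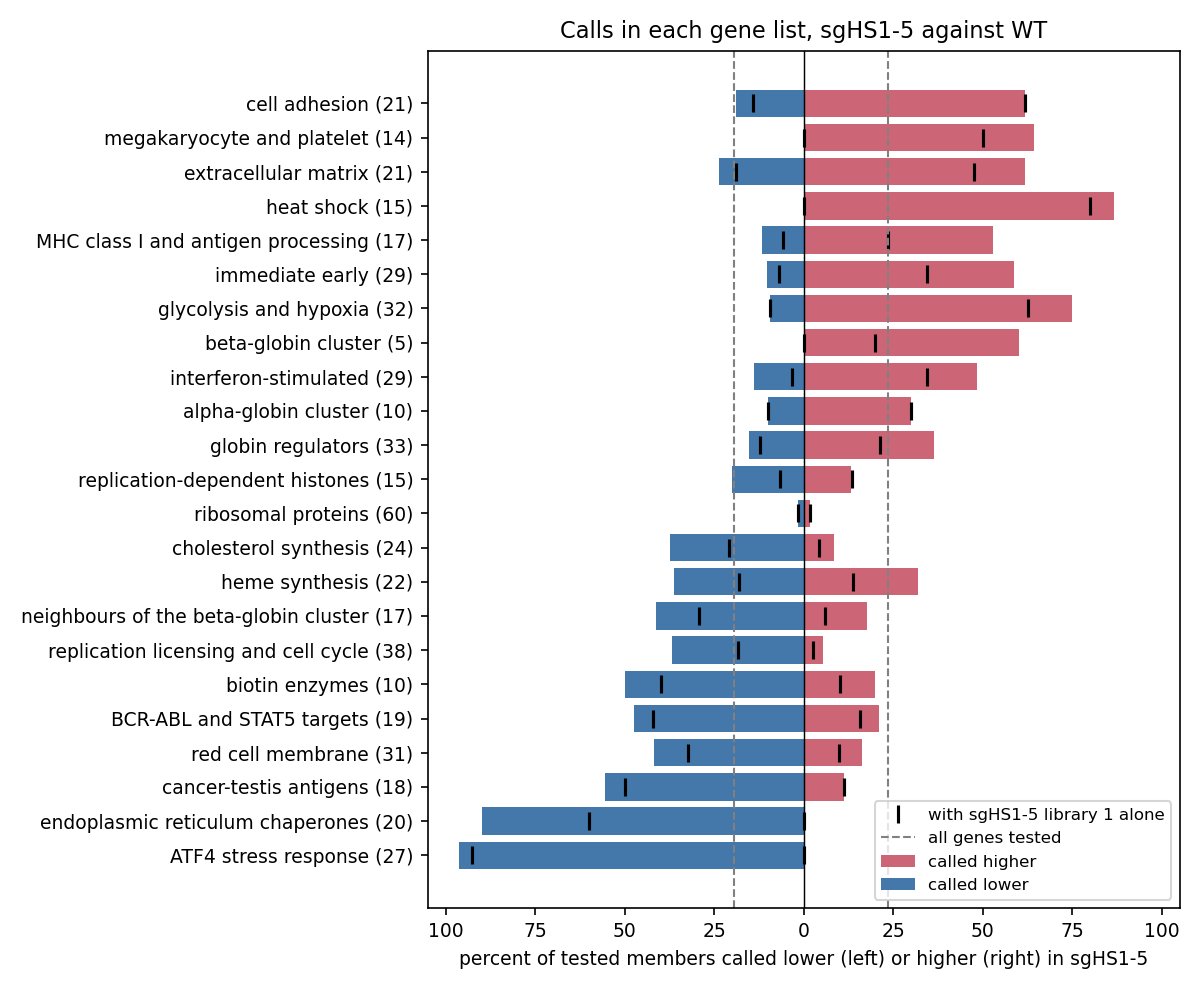
Percent of tested members of each gene list called higher (red, right) or lower (blue, left) in sgHS1-5 against WT, with black ticks for library 1 alone, dashed lines for all genes tested (23.4% and 19.5%) and the number tested in brackets. ATF4 response genes (96.3% lower) and endoplasmic reticulum chaperones (90% lower) lie at the bottom, and heat shock genes reach 86.7% higher.

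Immediate early genes, switched on by growth signals, rose in 17 of 29 cases (58.6%, beside 23.4% of all genes) and fell in 3 (10.3%, beside 19.5%; median 0.90; 10 and 2 with library 1). EGR1, a zinc finger factor, rose from 16.7 CPM in each WT library to 86.6, 64.7 and 92.2 CPM (log2 2.28 ± 0.19), and FOSL1, an AP-1 subunit, from 7.99 and 7.11 CPM to 39.0, 27.7 and 32.6 CPM. JUN rose by 0.40 (adjusted p = 0.00644), which library 1 alone did not reach (adjusted p = 0.14). EGR2 and DUSP6 followed library 2 (2.59, 41.6 and 21.8 CPM, and 2.43, 55.9 and 20.3 CPM). ATF3, which the ATF4 list also holds, fell by 2.23, and the growth-regulating factors KLF4 and KLF6 fell by 1.08 and 0.48.

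Targets and parts of BCR-ABL and STAT5 signalling, the pathway that drives K562, fell in 9 of 19 cases (47.4%, beside 19.5% of all genes) and rose in 4 (21.1%, beside 23.4%; median −0.40; 8 and 3 with library 1). SOCS2, a feedback inhibitor, fell from 181 and 178 CPM to 86.5, 58.3 and 77.1 CPM (log2 −1.28 ± 0.13, adjusted p = 9.59e-06), and PIM1, a survival kinase, from 833 and 832 CPM to 493, 346 and 451 CPM. CISH, SOCS1 and SOCS3 fell by 0.77, 1.03 and 1.49, and STAT5A and STAT5B themselves by 0.89 and 0.76. CCND1, cyclin D1, rose from 6.16 and 5.65 CPM to 26.7, 37.7 and 30.4 CPM, while SPRY2, a feedback inhibitor of growth signals, PIM2, a kinase, and CCND2, cyclin D2, rose by 1.52, 0.35 and 0.42. BCR and ABL1, whose fusion defines the line, were not called (log2 0.00 and −0.10). Against sgGal4 the list had 0 members higher and 5 lower in sgHS1-5, beside 20.3% and 20.2% of all genes. CCND1 was at 30.1, 35.4 and 35.6 CPM in sgGal4, and sgHS1-5 differed from sgGal4 by a log2 of −0.09 (adjusted p = 0.58).

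Replication and cell cycle genes fell in 14 of 38 cases (36.8%, beside 19.5% of all genes) and rose in 2 (5.26%, beside 23.4%; median −0.31). With library 1 the counts were 7 and 1, beside 12.3% and 14.2% of all genes. CDT1 and CDC6, which load the replicative helicase, fell by 1.14 and 0.88, and CCNA2, cyclin A2, by 0.94 (228 and 210 CPM in WT, 108, 134 and 100 CPM in sgHS1-5). Of the helicase subunits MCM2 to MCM7, MCM7 was called (log2 −0.37, adjusted p = 0.0258). The 2 that rose were BUB1 and CDC20 of the spindle checkpoint (0.50 and 0.35). The same list had 13 members higher and 3 lower in sgHS1-5 than in sgGal4, beside 20.3% and 20.2% of all genes. It had 24 lower and 2 higher in sgGal4 than in WT, beside 19.6% and 22.7% of all genes. Cytosolic ribosomal protein genes were nearly level with WT, with 1 of 60 higher and 1 lower (median 0.04), also with library 1 alone: RPS10 (log2 2.40, at 0.866 and 1.28 CPM in WT) and RPL10 (−0.91). Against sgGal4, 50 were lower and 0 higher, beside 20.2% and 20.3% of all genes. Without sgGal4 1 the count of 50 fell to 41. Replication-dependent histone genes had 2 of 15 higher, HIST1H3H and HIST1H4E (0.52 and 1.17), and 3 lower, HIST1H2BC, HIST1H2BJ and HIST1H2BK (−0.65, −0.89 and −0.42), beside 23.4% and 19.5% of all genes. Library 1 alone gave 2 and 1, and HIST1H2BC and HIST1H2BK were then not called (adjusted p = 0.255 and 0.25).

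Cholesterol synthesis genes fell in 9 of 24 cases (37.5%, beside 19.5% of all genes) and rose in 2 (8.33%, beside 23.4%; median −0.17; 5 and 1 with library 1). HMGCS1, which makes HMG-CoA, was at 193 and 191 CPM in WT and 77.1, 150 and 95.4 CPM in sgHS1-5 (log2 −0.84 ± 0.21), and SQLE, the squalene epoxidase, rose from 160 and 155 CPM to 536, 400 and 484 CPM. Against sgGal4 the list had 21 lower and 0 higher (median −1.11), beside 20.2% and 20.3% of all genes. In sgGal4 18 were higher and 0 lower than in WT (median 0.96), beside 22.7% and 19.6% of all genes. Biotin enzymes, of interest because BirA uses biotin, fell in 5 of 10 cases (50%, beside 19.5% of all genes) and rose in 2 (20%, near the 23.4% of all genes; 4 and 1 with library 1). PC, pyruvate carboxylase, fell from 33.4 and 34.2 CPM to 8.75, 9.97 and 9.33 CPM (log2 −1.85 ± 0.14), and HLCS, the human biotin ligase, from 86.5 and 88.9 CPM to 34.8, 37.1 and 41.5 CPM. SLC5A6, a vitamin carrier that imports biotin, rose from 47.0 and 51.5 CPM to 88.7, 82.5 and 91.7 CPM. ACACB and ACACA, acetyl-CoA carboxylases, moved in opposite directions (−2.18 and 0.84), and MCCC1, another carboxylase, and BTD, which recycles biotin, fell by 0.53 and 0.44.

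Cancer-testis antigen genes, normally restricted to germ cells and expressed in K562, fell in 10 of 18 cases (55.6%, beside 19.5% of all genes) and rose in 2 (11.1%, beside 23.4%; median −0.81, or −0.75 with genes at 0 in a group set to their bound), and library 1 alone gave 9 and 2. CTAG2 was at 9.43 and 9.75 CPM in WT and had 0 reads in every sgHS1-5 library, at least 66.8-fold lower. SSX1 fell from 169 and 167 CPM to 53.0, 31.7 and 47.6 CPM, and MAGEA1 from 43.6 and 44.9 CPM to 12.6, 8.33 and 14.6 CPM. PRDM9, a meiotic histone methyltransferase, rose from 6.06 and 5.56 CPM to 68.2, 41.6 and 59.1 CPM (log2 3.27 ± 0.21), and MAGEC1 from 31.6 and 27.7 CPM to 90.7, 52.4 and 78.8 CPM. PRAME, the most abundant of the list in counts, was not called (2130 and 2060 against 2030, 1320 and 1840 CPM). Many antigens of these families are near-identical copies, so single members are uncertain. CTAG2 was also at 0 in all sgGal4 libraries.

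Without regard to lists, the genes with the highest log2 difference were SPP1, MPO, LSP1, EMB, FRY, IL1RN, EVI2A, EGR2, FAM20C and CHI3L1. All 10 had the order library 2, then 3, then 1, with library 2 between 16.1 and 72.8 times library 1. MPO, the peroxidase of neutrophil granules, was at 0.192 and 0.182 CPM in WT and 19.4, 1410 and 264 CPM in sgHS1-5, and SPP1, osteopontin, at 0 in WT and 4.53, 94.4 and 42.2 CPM. The other 9 than MPO had 0 reads in WT, and their bounds ran from at least 148-fold (CHI3L1) to at least 351-fold higher (SPP1). Each was also called with library 1 alone, which the selection requires, and there EMB stood at 0.972 CPM and FRY at 0.810 CPM.

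A further selection, made after these values were seen, kept genes whose sgHS1-5 libraries lay within 2-fold of each other. NTS, the neuropeptide neurotensin, had 1 read in WT and 94.4, 65.1 and 83.8 CPM in sgHS1-5, a ratio of 1720 with a counting interval of 308 to 67900. HDC, which makes histamine, rose from 0.770 and 0.273 CPM to 253, 177 and 233 CPM (log2 8.71 ± 0.29, adjusted p = 9.54e-10). SLC6A15, LMCD1, SLITRK1 and MLLT3 had 0 reads in WT and were at least 65.1-, 59.3-, 56.3- and 51.5-fold higher. All 6 genes were also high in sgGal4. NTS stood there at 155, 96.2 and 80.5 CPM and HDC at 130, 150 and 152 CPM. SLC6A15, LMCD1, SLITRK1 and MLLT3 had means of 50.1, 31.6, 12.3 and 19.4 CPM in sgGal4, each above the sgHS1-5 means of 9.26, 8.38, 8.01 and 7.17 CPM.

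The 10 genes with the lowest log2 difference were CTAG2, HNF4A, SPRR2D, MAEL, KRBA2, SSX3, NAA11, LINC01300, CXCL11 and SERPINC1. SPRR2D, a cornified envelope protein gene, fell from 92.1 and 94.6 CPM to 0.324, 0.137 and 0.406 CPM (log2 −8.28 ± 0.26, adjusted p = 9.54e-10). SERPINC1, which encodes antithrombin, fell from 86.6 and 89.8 CPM to 0.972, 1.23 and 0.946 CPM. CXCL11, a chemokine, fell from 26.1 and 26.2 CPM to 0.324, 0.273 and 0.270 CPM. HNF4A, a nuclear receptor, was at 4.52 and 6.56 CPM in WT and at 0 in sgHS1-5, at least 38.8-fold lower, and MAEL and KRBA2 were at least 19.6- and 15-fold lower. The highest sgHS1-5 value among the 10 genes was 1.23 CPM, that of SERPINC1 in library 2. All 10 were also called lower in sgGal4 than in WT. SPRR2D stood at 1.56, 0.774 and 0.917 CPM there and CXCL11 at 0, 0.0968 and 0 CPM, and the highest sgGal4 value among the 10 genes was 5.39 CPM for SERPINC1.

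Some genes differed from WT and from sgGal4 in the same direction, again a selection made after the values were seen, which did not ask about the groups with sgHS2 or sgHBG. INHBE, an activin subunit, fell from 148 and 159 CPM in WT to 5.83, 3.82 and 5.14 CPM (log2 −4.96 ± 0.15, adjusted p = 9.54e-10) and stood at 128, 139 and 154 CPM in sgGal4. IL20RB, a cytokine receptor chain, fell from 113 and 111 CPM to 3.72, 2.73 and 4.19 CPM, with 71.5, 50.7 and 52.0 CPM in sgGal4. CPZ, a carboxypeptidase, fell from 38.6 and 41.9 CPM to 2.27, 1.64 and 2.43 CPM, with 63.3, 60.4 and 60.5 CPM in sgGal4. SLC6A9, a glycine carrier, fell from 94.4 and 103 CPM to 3.56, 2.59 and 4.06 CPM, with 18.6, 28.1 and 27.1 CPM in sgGal4, and IGF1, the growth factor, from 36.1 and 33.5 CPM to 2.75, 2.18 and 1.62 CPM, with 12.5, 13.1 and 13.8 CPM. On the higher side, LINC00861, a long non-coding RNA, rose from 42.4 and 38.8 CPM to 761, 531 and 696 CPM and was at 8.23, 36.1 and 46.2 CPM in sgGal4. MS4A6A, a membrane protein gene of monocytes, rose from 1.64 and 2.19 CPM to 26.4, 36.2 and 28.9 CPM, with 0.567, 0.774 and 1.01 CPM in sgGal4. Both were high in sgHBG too, a group with an sgRNA against the γ-globin genes, at 296, 333 and 324 CPM for LINC00861 and 39.6, 36.8 and 40.4 CPM for MS4A6A. GRPR, the receptor of gastrin-releasing peptide, rose from 0.770 and 0.820 CPM to 11.7, 9.15 and 10.5 CPM, with 0.851, 0.774 and 0.734 CPM in sgGal4. GRPR also stood above WT in sgHS2 (3.58, 4.72 and 5.43 CPM) and in sgHBG (2.6, 3.48 and 2.88 CPM). INHBE, IL20RB, CPZ, SLC6A9 and IGF1 were lower than WT in sgHS2 and sgHBG too. Their log2 differences there ran from −0.35 (INHBE in sgHS2) to −2.06 (IGF1 in sgHBG).

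Over all genes, sgHS1-5 against sgGal4 gave 5823 calls (40.4%), 2920 higher (20.3%) and 2903 lower (20.2%). Between sgGal4 and WT there were 6103 (42.4%), 3276 higher (22.7%) and 2827 lower (19.6%). As all 3 comparisons draw on the same 8 libraries, their calls are not independent.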

How the data were processed

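RNA was made into libraries with the TruSeq RNA v2 kit and sequenced on a NextSeq500, per the labels' protocols. The authors deposited unnormalised read counts per gene (24729 genes) and RPKM values (25268 genes, 539 in that table alone). TopHat, Cufflinks, DESeq and hg19 are named without versions in the submitters' processing notes. The counting step is not given in the sources used here, and the kit does not mark strand, so overlapping antisense genes cannot be told apart.

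Groups came from the labels. Counts were analysed in R 4.3.3 with edgeR 4.0.16: filterByExpr (minimum count 10, minimum total 15), TMM scaling, a mean per group over all 14 libraries (9 residual degrees of freedom, common dispersion 0.0323) and the quasi-likelihood F test. A gene was called at a Benjamini-Hochberg adjusted p under 0.05 over the 14406 genes tested, and every adjusted p is from this test unless another is named. Log2 differences are fitted values with SE for 3 sgHS1-5 and 2 WT libraries. Levels are TMM-scaled CPM. Bounds against 0 reads use 3 counts over the group; intervals are exact binomial at counting error only.

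Genes were named by rule: the 10 highest and 10 lowest log2 differences among called genes with 1 CPM or more on average, no overlap between groups and the same call with library 1; every β-globin gene; up to 4 members of each list with the lowest p, or, for blood cell markers, the highest levels. Other members, and the selections by library agreement and by sgGal4, were named after their values were seen. The members and lists were chosen with earlier results of these data known. Of 621 listed genes, 553 were tested. Promoters are RefSeq windows matched by symbol. The scripts were tested on simulated data. Alternatives were RLE factors, library sizes without globins, other filters, DESeq2 1.42.0, limma voom and RPKM with limma-trend (limma 3.58.1), a replicate block, a minimum of 1.5-fold, and fits without single libraries. Deviations of libraries with the same replicate number had correlations of −0.0305 and −0.0336. With 2 WT libraries these deviations mirror each other (WT 2 with sgHS1-5 1 gave 0.0305). They therefore cannot decide whether equal numbers share a source. Some genes of the lists are counted but are not reported here by name.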

Additional observations from a re-analysis of the deposited data

How the results depend on the processing

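Of 176 named genes with a test, 133 kept their call and direction under every alternative run, and 4 changed sign under one or more. CSF3R, the neutrophil growth factor receptor, ranged from −0.454 (without sgHS1-5 replicate 2) to 1.12 (without sgHS1-5 replicate 1) over the fits that left out 1 library, and stood at −1.0 with library 1 alone. CD14, called higher with all libraries, went to −0.498 and GATA1 to 0.0122 with library 1 alone, and HEMGN ranged from −0.0235 (without sgHS1-5 replicate 1) to 0.307 (without sgHS1-5 replicate 2). The cause was not tested.

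The count of 6182 calls against WT (3378 higher, 2804 lower) became 2979 (1857 and 1122) at a minimum of 1.5-fold and 3825 (2047 and 1778) with library 1 alone, which leaves fewer samples. Leaving out 1 library of either group gave 3988 to 5765 calls (2050 to 3212 higher, 1928 to 2622 lower). Leaving out sgGal4 1, a fit added after seeing the data, gave 8221 (4403 and 3818), and without sgGal4 1 and sgHS2 2 there were 8967, of which 4284 were lower. DESeq2 gave 6305, limma voom 5895, the 5 libraries alone 6641, and RPKM 6207 to 6483. With the replicate number as a block there were 5678 calls (3141 higher, 2537 lower). The labels do not say that equal numbers mark a shared source.

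Against sgGal4, 5823 calls (2920 higher, 2903 lower) became 1941 (1169 and 772) at 1.5-fold and 2470 (1208 and 1262) with library 1 alone, and ranged from 4424 to 6618 over fits without 1 library. Between sgGal4 and WT, 6103 calls became 2606 (1464 and 1142) at 1.5-fold. Without 1 library they ranged from 3906 (without WT 1; 2027 higher and 1879 lower) to 7348 (without sgGal4 1; 3832 and 3516). Genes under about 0.527 CPM, the level that 0 reads allow in the shallowest library, are limited by depth.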
